A study of Mus musculus with 12 samples.

Results

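The fasted liver without carnitine palmitoyltransferase 2 (CPT2) was compared with the fasted liver that keeps it, across all genes. The comparison was chosen by genotype label and takes 8 of the 12 livers of the series, 4 from mice with a liver-specific KO of Cpt2 (single KO, SKO) and 4 from floxed controls (WT). All 8 mice had been fasted for 24 h. The SKO livers lost Cpt2 through Cre recombinase driven by the albumin promoter, which is active in hepatocytes and, per the study's methods, was bred into floxed lines. The WT livers carry the label of a Cpt1a, Cpt1b and Cpt2 triple floxed control, and the SKO label says nothing of Cpt1a or Cpt1b. The paper instead describes the phenotypically WT mice of its Atf3 and Cpt2 cross as floxed for those genes, so the sources differ on which alleles the WT livers carry. The labels give no age, sex, litter or date per liver, and nothing in them ties livers to separate cohorts, so p-values measure the spread between these livers. The remaining livers of the series, an Atf3 and Cpt2 double KO, did not enter the fit.

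The gene counts of a liver summed to 14710304 in the shallowest library and 20030055 in the deepest. Levels are given as CPM, a gene's count per fixed number of counts in the library after scaling between livers. Cpt2 had 197, 243, 233 and 245 CPM in WT replicates 1 to 4 and 109.7, 156, 106 and 124 in SKO replicates 1 to 4. The 2 ranges did not overlap, with a log2 fold change of −0.89 (SE 0.15, adjusted p = 0.000826) in edgeR's quasi-likelihood test, the test used throughout. Counts are per gene and not per exon, so reads on the deleted part of Cpt2 and reads on the rest of its transcript, or from cells without Cre, cannot be told apart. SKO replicate 3 stood apart from the other livers. It had 18063 counts of Xist, where the other 7 livers had 1 to 19, and 2 counts over the Y-linked genes, where the others had 2741 to 4294, although the paper describes the mice of this experiment as male. Counts over all genes are therefore given with and without it, as are the list counts that changed by over 1.5 times without it.

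CPT2 sits in the inner mitochondrial membrane and hands long-chain fatty acids, which arrive as acylcarnitines, back to coenzyme A inside the matrix, where β-oxidation shortens them to acetyl-CoA. During a fast the liver lives on this pathway, turns much of the acetyl-CoA into ketone bodies and draws on the same energy for gluconeogenesis. Fatty acids that are not burned can be stored as triglyceride in lipid droplets, can enter peroxisomal or ω-oxidation, and are ligands of the nuclear receptor PPARα, the main switch of the fasting transcriptome in hepatocytes.

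Loss of Cpt2 came with a changed level of about 1 gene in 3. Of 14261 genes tested, 2378 were higher in SKO livers (16.7%) and 2198 lower (15.4%), 4576 in all (32.1%) at an adjusted p below 0.05. Without SKO replicate 3, 4711 of 14475 tested genes were called (32.5%), 2508 higher and 2203 lower, and all 4166 genes called both with and without that liver kept their direction. Changes of at least 2-fold were found for 829 genes that rose (5.81%) and 1108 that fell (7.77%), and of at least 16-fold for 50 and 44. The SKO and WT ranges did not overlap for 4734 genes (33.2%). Genes called higher took 12.3 to 12.6% of all counts in WT livers and 26.5 to 30.9% in SKO livers, whereas genes called lower went from 42.9 to 44.9% down to 22.2 to 27.2%. The median log2 fold change over all genes was 0.03. When livers were scaled by library size alone it moved up by 0.173, and 3759 genes were then higher and 1562 lower, a split of 70.6% to the higher side against 52.0%. Replicates scattered more in the KO, with a biological coefficient of variation of 0.181 among WT and 0.265 among SKO livers. Counts over gene lists are set against these shares of all genes, 16.7% higher and 15.4% lower. In bulk tissue, fewer cells of a type and less RNA per cell cannot be told apart.

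**Figure D1:**
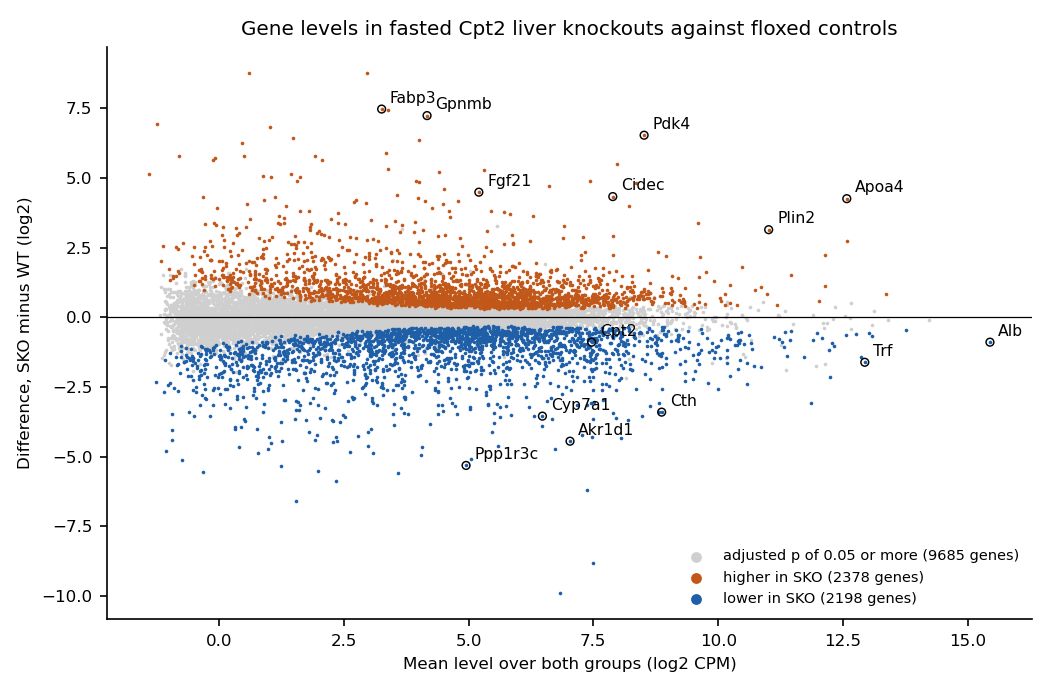
Each point is 1 of 14261 genes, with its mean level over both groups on the x axis (log2 CPM) and its fitted difference, SKO minus WT, on the y axis (log2). Orange and blue points passed the adjusted p threshold, 2378 higher and 2198 lower, and the rises reach higher among weakly expressed genes while Alb and Trf mark the falls among the most abundant ones.

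The genes of the carnitine shuttle, which carries fatty acids across the mitochondrial membranes, rose in SKO livers apart from Cpt2 itself. Of its 6 genes, 5 rose and 1, Cpt2, fell. Slc22a5, the plasma membrane carnitine transporter, went from 65.6–86.4 CPM in WT to 203–284 in SKO livers (log2 fold change 1.65, SE 0.15, adjusted p = 1.58e-05). Crat, a carnitine acetyltransferase of mitochondria and peroxisomes, went from 104–114 to 253–409 CPM (log2 fold change 1.63, SE 0.16, adjusted p = 2.22e-05). Neither pair of ranges overlapped. Cpt1b, the muscle form of the outer enzyme, had only 0.269–0.700 CPM in WT and 1.42–4.97 in SKO livers (log2 fold change 2.89, SE 0.45, adjusted p = 0.000515). Cpt1a, the liver form of the rate-controlling step, rose by a smaller amount (log2 fold change 0.45, SE 0.14, adjusted p = 0.0282), as did the translocase gene Slc25a20 (log2 fold change 0.47, SE 0.14, adjusted p = 0.025), and both calls were lost in 6 of the 8 fits that left out 1 liver, at adjusted p-values of 0.0511 to 0.0989 for Cpt1a and 0.0501 to 0.0877 for Slc25a20. Without SKO replicate 3, 3 of the 6 genes were called higher. The WT label names floxed Cpt1a and Cpt1b, and whether the SKO mice carry such alleles is not given in the labels.

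The enzyme genes of mitochondrial β-oxidation rose in part. Among them, 9 of 18 tested genes rose and 2 fell, with a median log2 fold change of 0.38, and none passed 2-fold. Hadha and Hadhb encode the trifunctional protein of the last 3 steps for long chains, and went from 575 ± 61.5 to 1003 ± 156 CPM (mean ± SD, n = 4) and from 282 ± 18.9 to 513 ± 69.1 CPM (adjusted p = 0.00199 and 0.000515). Acadl, a long-chain acyl-CoA dehydrogenase, went from 328 ± 35.6 to 621 ± 90.8 CPM (log2 fold change 0.92, SE 0.15, adjusted p = 0.000613). Acadvl, the very-long-chain dehydrogenase, had a log2 fold change of 0.57 (SE 0.15, adjusted p = 0.0128), a call lost with all 12 livers in the fit (0.0601). Of the 7 ketone genes tested, the 2 that rose were the monocarboxylate transporters Slc16a1 (log2 fold change 1.24, SE 0.16, adjusted p = 0.000137) and Slc16a6 (log2 fold change 1.19, SE 0.35, adjusted p = 0.0235), and the latter call was lost in 4 of the 8 fits that left out 1 liver, SKO replicate 3 among them.

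Target genes of PPARα rose. Among 45 listed genes known as targets in mouse liver, 33 of 44 tested genes rose and 0 fell, with a median log2 fold change of 1.15. Without SKO replicate 3 the counts were 31 and 0. In SKO replicates 1 to 4 the median deviation of these genes from the WT mean was 1.20, 1.13, 1.18 and 0.76 on the log2 scale, against −0.14, −0.02, 0.10 and 0.10 in WT replicates. The receptor gene Ppara itself did not pass the test (log2 fold change 0.23, SE 0.22, adjusted p = 0.476). Pdk4, the kinase that switches off pyruvate dehydrogenase when fat is burned, had 6.76, 5.53, 12.3 and 6.62 CPM in WT and 799, 687, 906 and 504 CPM in SKO livers. Every SKO liver was above every WT liver, with a log2 fold change of 6.54 (SE 0.31, adjusted p = 2.88e-07). Pparg, the fat-storing relative of the receptor, went from 7.10–8.62 to 19.9–24.9 CPM (log2 fold change 1.48, SE 0.14, adjusted p = 1.95e-05), again without overlap.

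Genes of other routes of fatty acid disposal rose in part. The bifunctional peroxisomal enzyme gene Ehhadh went from 952–2167 to 9237–12454 CPM (log2 fold change 2.73, SE 0.24, adjusted p = 1.37e-05), and the peroxisomal thiolase gene Acaa1b from 1282–2009 to 6129–9147 CPM (log2 fold change 2.24, SE 0.20, adjusted p = 1.42e-05). Pex11a, a peroxisome division factor, rose from 176 ± 37.5 to 815 ± 75.3 CPM, and of 16 peroxins 8 rose and 3 fell. Of 15 peroxisomal enzyme or transporter genes 7 rose and 4 fell, among them Pecr, an enoyl-CoA reductase gene, from 187 ± 9.34 to 33.6 ± 2.56 CPM (log2 fold change −2.48, SE 0.12, adjusted p = 2.88e-07). In ω-oxidation, 4 of 9 rose and 2 fell. The fatty aldehyde dehydrogenase gene Aldh3a2 had a log2 fold change of 1.82 (SE 0.14, adjusted p = 6.4e-06), and the microsomal hydroxylases Cyp4a10 and Cyp4a14, whose near-identical copies may share reads, had log2 fold changes of 0.59 and 0.83 (adjusted p = 0.00713 and 0.00131), the first of which was not called with all 12 livers in the fit (0.0983).

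Acyl-CoA thioesterase genes, whose products release free coenzyme A from fatty acyl-CoA, were also raised. Of 12 tested, 8 rose and 1 fell. Mitochondrial Acot2 had 9.08, 7.93, 13.3 and 14.9 CPM in WT and 283, 519, 343 and 197 CPM in SKO livers (log2 fold change 4.89, SE 0.33, adjusted p = 2.41e-06). Cytosolic Acot1, its close paralog, went from 116–149 to 984–1888 CPM (log2 fold change 3.39, SE 0.22, adjusted p = 1.75e-06), and reads shared between the pair could move counts from one to the other. Of 14 acyl-CoA synthetases, which run the opposite reaction, 3 rose and 5 fell, against 16.7% and 15.4% of all genes. All 5 falls and 0 of the rises passed 2-fold, and the median log2 fold change was −0.28 (−0.43 without SKO replicate 3).

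**Figure D2:**
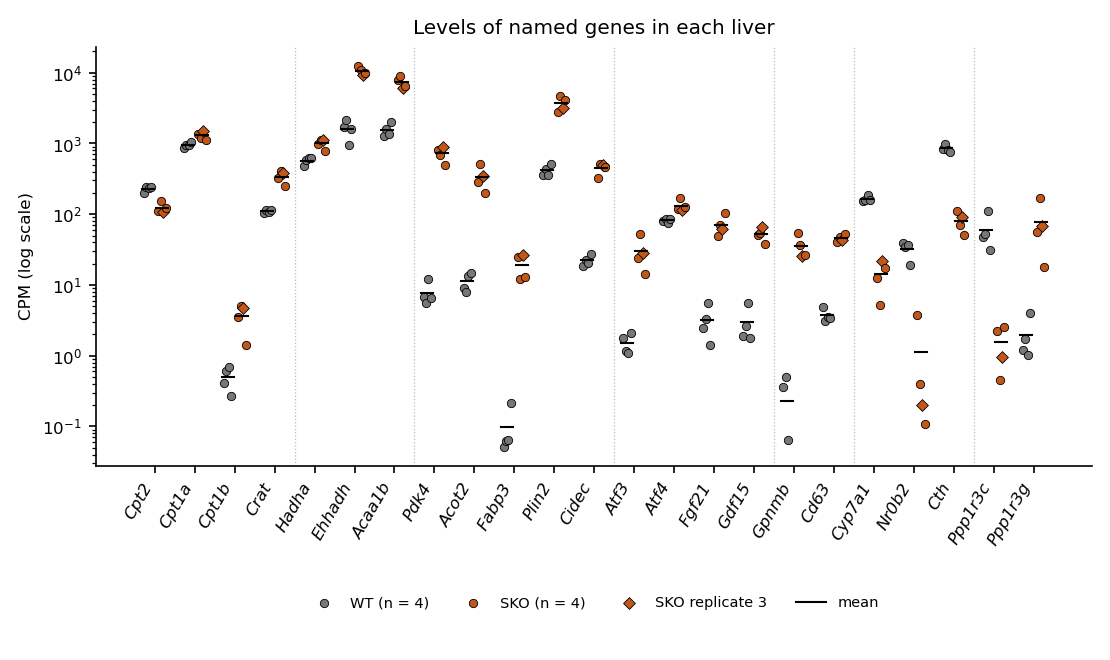
Levels of 23 genes in each liver, in CPM on a log axis, with WT livers in grey, SKO livers in orange, SKO replicate 3 as a diamond and the mean of each group as a bar. In order, the groups of genes are the carnitine shuttle, other fatty acid oxidation, PPARα targets and storage, stress factors, lysosome, bile acid and cysteine enzymes and glycogen targeting. The SKO livers lie below the WT livers for Cpt2, Cyp7a1, Nr0b2, Cth and Ppp1r3c and above them for the other 18 genes, and a WT liver with 0 CPM of Gpnmb is not drawn.

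Genes for taking up, binding and storing fat rose with them, 6 of 11 for uptake and binding with 1 lower. Fabp3, the fatty acid binding protein of heart and muscle, was near the detection limit in WT livers at 0.0516, 0.0615, 0.0636 and 0.215 CPM, 7 counts in all, and reached 24.8, 12.2, 26.3 and 12.9 CPM in SKO livers. The ratio of counts was 212, with a 95% counting interval from 103 to 529 (Clopper-Pearson), and this interval covers counting error only. Fabp4 and Cd36, known best from adipocytes and macrophages, rose from 4.95–9.60 to 24.3–85.4 CPM and from 27.04–47.4 to 129.6–545 CPM. On the droplet surface, 12 of 17 tested genes rose and 0 fell, with a median log2 fold change of 1.43. Plin2, which coats hepatocyte droplets, had 364, 439, 356 and 513 CPM in WT and 2829.9, 4693, 3146 and 4162 in SKO livers (log2 fold change 3.15, SE 0.21, adjusted p = 2.36e-06). Cidec, which fuses small droplets into large ones, had 18.7, 22.7, 20.5 and 27.4 CPM in WT and 320.4, 517, 500.4 and 469 in SKO livers (log2 fold change 4.34, SE 0.20, adjusted p = 2.88e-07). For both genes, all 4 SKO livers lay above the WT range. Hilpda, an inhibitor of triglyceride lipase, went from 1.91 ± 0.393 to 18.5 ± 7.27 CPM, and the droplet enzyme gene Hsd17b13 from 424 ± 20.8 to 1303 ± 234.

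Fat synthesis genes mostly moved the other way. Of the lipogenic enzymes and their regulators, 3 of 15 tested genes rose and 9 fell, with a median log2 fold change of −1.20. Thrsp, a lipogenic regulator responsive to thyroid hormone, fell from 35.2 ± 9.78 to 2.44 ± 0.671 CPM (log2 fold change −3.84, SE 0.26, adjusted p = 2.58e-06), Acly, which makes cytosolic acetyl-CoA, from 128 ± 17.4 to 55.9 ± 7.83 CPM, and Fasn, fatty acid synthase, from 127 ± 37.6 to 48.8 ± 21.6 CPM (adjusted p = 0.000104 and 0.00324). Srebf1, the transcription factor gene above them, had a log2 fold change of −1.22 (SE 0.20, adjusted p = 0.000694), and the stearoyl-CoA desaturase gene Scd1 a log2 fold change of −1.58 (SE 0.47, adjusted p = 0.0233), a call lost without SKO replicate 2 (adjusted p = 0.0723) or 4 (0.0683), with log2 fold changes from −2.44, without SKO replicate 1, to −1.29 over the alternatives. The summed level of the list overlapped between the groups, at 1945 to 2199 CPM in WT and 1514 to 2600 CPM in SKO livers. All 3 genes that rose passed 2-fold, an acetyl-CoA carboxylase gene among them. Acacb, whose malonyl-CoA product inhibits CPT1 at the mitochondrial surface, rose from 44.5–58.7 to 191–285 CPM (log2 fold change 2.25, SE 0.16, adjusted p = 2.99e-06). Of 15 elongase and desaturase genes 6 rose and 2 fell. Elovl7, an elongase of saturated very-long chains, had 0.206, 0.123, 0.763 and 0.431 CPM in WT and 26.1, 30.3, 37.2 and 33.3 CPM in SKO livers (log2 fold change 6.38, SE 0.34, adjusted p = 5.53e-07).

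Among triglyceride and VLDL genes, the acyltransferase gene Gpat3 (log2 fold change 1.83, SE 0.15, adjusted p = 7.46e-06), the phosphatidate phosphatase gene Lpin2, from 554 ± 186 to 1375 ± 212 CPM, and the lipid transfer gene Mttp (log2 fold change 0.76, SE 0.13, adjusted p = 0.000886) rose, 9 of 21 tested against 5 lower. In the triglyceride and VLDL list, 4 rises and 3 falls passed 2-fold, and its members summed to 12301–14165 CPM in WT and 8693–12817 CPM in SKO livers. Of 17 apolipoprotein genes tested, 1 rose and 10 fell. The one that rose was Apoa4, whose protein circulates on triglyceride-rich particles and HDL. It had 814, 839, 365 and 399 CPM in WT and 8527, 16322, 7367 and 14163 in SKO livers, 0.0334 to 0.0805% and 0.794 to 1.67% of all counts. The lowest SKO liver was several times above the highest WT liver, with a log2 fold change of 4.26 (SE 0.38, adjusted p = 1.37e-05). The genes that share its cluster on chromosome 9 did not follow. Apoa1 had 8154 ± 573 CPM in WT and 9585 ± 2728 CPM in SKO livers (log2 fold change 0.23, SE 0.20, adjusted p = 0.415), Apoc3 1512 ± 18.1 and 1489 ± 506 CPM (log2 fold change −0.02, SE 0.21, adjusted p = 0.948), and Apoa5 1384 ± 178 and 1452 ± 159 CPM (log2 fold change 0.07, SE 0.15, adjusted p = 0.764). Missing the threshold does not show that these 3 levels were equal between the groups. Elsewhere in the genome, Apof, an inhibitor of lipid transfer, fell from 665 ± 60.8 to 274 ± 16.6 CPM (log2 fold change −1.28, SE 0.12, adjusted p = 2.52e-05). Apob and Apoe fell by less (log2 fold change −0.58, SE 0.20, adjusted p = 0.0468 and log2 fold change −0.46, SE 0.16, adjusted p = 0.045), and leaving out 1 liver lost the call in 7 of 8 fits for Apob, at up to 0.121, and in 5 of 8 for Apoe, at up to 0.114. Scarb1, the HDL receptor, fell, with a log2 fold change of −1.77. Of 17 lipoprotein receptors and lipases 3 rose and 7 fell. Lrp1, a large receptor for particle remnants, fell from 1130.3 ± 188 to 396 ± 150.4 CPM (log2 fold change −1.51, SE 0.25, adjusted p = 0.000702).

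**Figure D3:**
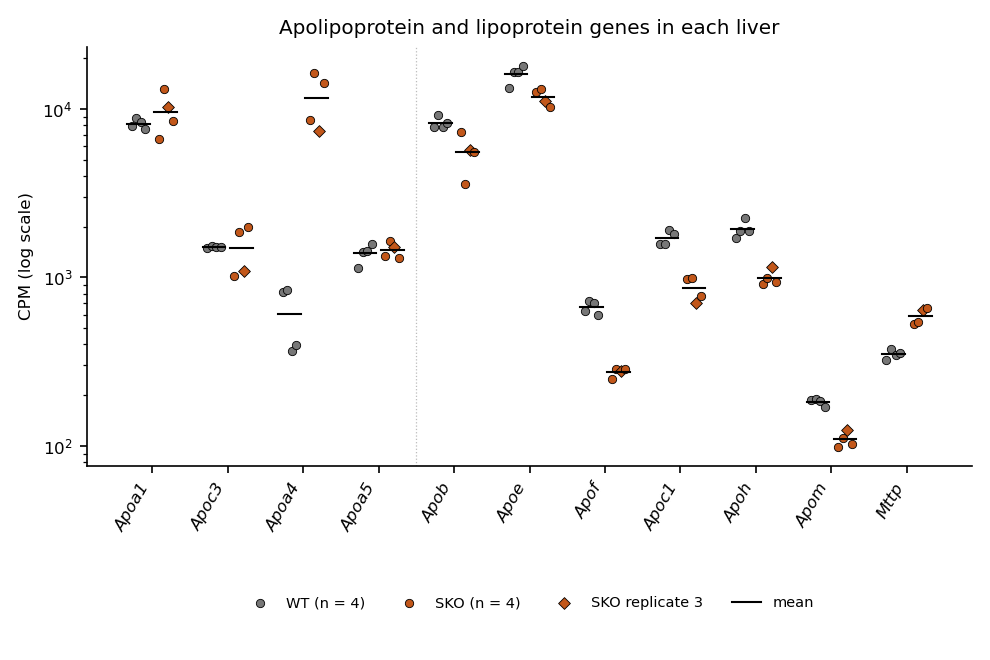
Levels of 11 apolipoprotein and lipoprotein genes in each liver, in CPM on a log axis, with WT livers in grey, SKO livers in orange, SKO replicate 3 as a diamond and the group mean as a bar. The 4 genes left of the dotted line share a cluster on chromosome 9, of which only Apoa4 separates the groups past the threshold.

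In cholesterol synthesis and the making of bile acids, gene levels were mostly lower. In the SREBP2 pathway, 0 of 25 tested genes rose and 14 fell, with a median log2 fold change of −0.86. Sc5d, a late enzyme of the pathway, fell from 249.7 ± 15.3 to 107 ± 9.88 CPM (log2 fold change −1.23, SE 0.12, adjusted p = 2.36e-05). Of 10 bile acid synthesis genes, 0 rose and 7 fell. Cyp7a1, the rate-limiting enzyme of the classical route, had 155, 157, 188 and 158 CPM in WT and 12.3, 5.27, 21.7 and 17.1 CPM in SKO livers (log2 fold change −3.54, SE 0.34, adjusted p = 2.2e-05). All 4 SKO livers lay below the WT range. Akr1d1, the steroid reductase after it, went from 224–288 to 4.66–26.6 CPM (log2 fold change −4.44, SE 0.51, adjusted p = 6.95e-05, and −5.29 without SKO replicate 3). Nr0b2 encodes SHP, the bile-acid-induced repressor of Cyp7a1, and fell together with the gene it represses, from 39.2, 33.9, 36.2 and 19.1 CPM to 3.75, 0.402, 0.203 and 0.110 CPM (log2 fold change −4.93, SE 0.71, adjusted p = 0.000331). Without SKO replicate 1, the highest of the SKO livers, its log2 fold change was −7.01. The export pump gene Abcb11 and the uptake transporter gene Slc10a1 fell, with log2 fold changes of −3.65 and −1.66. Of 12 bile acid transport genes 1 rose and 6 fell.

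In glucose metabolism, the genes of hepatic glucose output were mostly lower. Of 11 gluconeogenic genes, 2 rose and 6 fell. Fbp1, fructose bisphosphatase, had 1162, 1274, 1189 and 1178 CPM in WT and 451, 399, 399.8 and 253 CPM in SKO livers (log2 fold change −1.68, SE 0.18, adjusted p = 4.01e-05). The key fasting enzymes had log2 fold changes of −0.91 for Pck1 (SE 0.23, adjusted p = 0.0111), −1.50 for G6pc (SE 0.32, adjusted p = 0.00414) and −0.33 for Pcx, pyruvate carboxylase (SE 0.19, adjusted p = 0.2, and 0.0496 without SKO replicate 3). Pck2, the mitochondrial PEP carboxykinase and an ATF4 target, rose from 4.28 ± 1.07 to 14.9 ± 4.47 CPM (log2 fold change 1.80, SE 0.26, adjusted p = 0.000316). The sugar transporter gene Slc2a2 and the fructokinase gene Khk fell, with log2 fold changes of −1.82 and −1.53 (adjusted p = 1.58e-05 and 1.25e-05), while the glycolytic aldolase gene Aldoa rose from 107 ± 6.03 to 307 ± 76.7 CPM (log2 fold change 1.51, SE 0.17, adjusted p = 5.48e-05). Of 21 genes of glycolysis and fructose use 2 rose and 5 fell (33.3% called), and 4 and 5 without SKO replicate 3.

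Among glycogen genes, the subunits that target protein phosphatase 1 to glycogen moved in opposite directions. Ppp1r3c had 47.3, 51.99, 110.4 and 31.5 CPM in WT and 2.23, 0.452, 0.964 and 2.52 CPM in SKO livers (log2 fold change −5.31, SE 0.51, adjusted p = 2.27e-05), and Ppp1r3b fell from 139–321 to 9.44–20.7 CPM (log2 fold change −3.66, SE 0.36, adjusted p = 2.54e-05). Ppp1r3g moved in the opposite direction, with 1.19, 1.72, 1.02 and 3.98 CPM in WT and 55.6, 169, 68.96 and 17.9 CPM in SKO livers (log2 fold change 5.28, SE 0.67, adjusted p = 0.000141), a log2 fold change that was 4.57 without SKO replicate 2 and 5.87 without WT replicate 4. No WT and SKO values overlapped for any of the 3. Of 11 glycogen genes 2 rose and 4 fell, and 4 and 4 without SKO replicate 3. Pygl, the phosphorylase that breaks glycogen down, fell from 275 ± 22.4 to 75.4 ± 9.10 CPM (log2 fold change −1.87, SE 0.13, adjusted p = 3.09e-06).

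Few respiratory chain genes were called. Of 76 nuclear-encoded subunits, 5 rose and 2 fell (9.21% called, against 32.1% of all genes), with a median log2 fold change of 0.09. Their median deviation from the WT mean was −0.16, 0.38, −0.04 and 0.08 in SKO replicates 1 to 4 and −0.01 to 0.02 in WT livers, so that no SKO liver lay within the WT range, 2 above it and 2 below. SKO replicate 2 stood furthest out, with a summed level of 15788 CPM against 12119 to 12567 in WT and 11548 to 13340 in the other SKO livers. Of the 13 subunits encoded in mitochondria, 1 rose and 1 fell, and the mitochondrial share of counts was 4.73 to 5.98% in WT and 4.58 to 6.01% in SKO livers. The citrate synthase gene Cs (log2 fold change 1.08, SE 0.15, adjusted p = 0.000283) and Mpc1, a subunit of the mitochondrial pyruvate carrier (log2 fold change 1.15, SE 0.18, adjusted p = 0.000682), rose. Within the pyruvate dehydrogenase and TCA cycle list, 7 of 30 rose and 5 fell, and 6 and 3 without SKO replicate 3. Pdk4 is among those that rose.

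Genes of the integrated stress response rose in part. This response couples kinases that sense stress, including amino acid lack and mitochondrial damage, to the transcription factor ATF4. Of its 7 transcription factor genes 6 rose. Atf3 had 1.75, 1.17, 1.08 and 2.10 CPM in WT and 24.3, 53.01, 28.7 and 14.2 CPM in SKO livers (log2 fold change 4.28, SE 0.40, adjusted p = 1.99e-05), a gap with no overlap and a wide spread among SKO livers. Atf4 and Atf5 rose by 0.70 and 0.83 on the log2 scale (adjusted p = 0.00346 and 0.0036), Ddit3, which encodes CHOP, had a log2 fold change of 0.81 (SE 0.22, adjusted p = 0.0136, and 0.0724 with all 12 livers in the fit), and Nupr1 went from 0.377–0.860 to 3.65–34.01 CPM (log2 fold change 5.33, SE 0.66, adjusted p = 0.000125). Among target genes, 13 of 25 tested genes rose and 3 fell, with a median log2 fold change of 0.78. The secreted factor Fgf21, a fasting hormone that both PPARα and ATF4 are known to induce, had 2.48, 3.26, 5.53 and 1.40 CPM in WT and 49.2, 69.5, 61.3 and 103 CPM in SKO livers (log2 fold change 4.50, SE 0.37, adjusted p = 8.1e-06). Gdf15, an appetite-lowering cytokine, had 1.91, 2.64, 5.47 and 1.78 CPM in WT and 51.4, 54.8, 65.9 and 38.5 CPM in SKO livers (log2 fold change 4.17, SE 0.33, adjusted p = 6.1e-06). In both, the lowest SKO liver exceeded the highest WT liver.

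Members of the target list went in both directions. Psat1, of serine synthesis, went from 0.715 ± 0.165 to 9.70 ± 2.51 CPM (log2 fold change 3.75, SE 0.28, adjusted p = 4.68e-06), and Slc3a2, the heavy chain of several amino acid transporters, from 33.8 ± 2.23 to 129 ± 13.7 CPM (log2 fold change 1.94, SE 0.12, adjusted p = 1.73e-06). Asns, asparagine synthetase, had a log2 fold change of −0.21 (SE 0.45, adjusted p = 0.764), and Trib3, a feedback inhibitor of the pathway, a log2 fold change of 0.74 (SE 0.29, adjusted p = 0.0687), so neither passed, although Trib3 did in 6 of the alternatives, with DESeq2 (adjusted p = 0.0433) and without SKO replicate 3 (0.0164) among them. Cth, which makes cysteine by transsulfuration, fell instead, with 849, 986, 812 and 765 CPM in WT and 110.4, 71.04, 91.6 and 50.3 CPM in SKO livers (log2 fold change −3.40, SE 0.23, adjusted p = 2.58e-06). Slc7a11, the cystine transporter and a partner of Slc3a2, was listed at 0 counts in all 4 WT livers and had 4.13, 2.21, 0 and 4.11 CPM in SKO replicates 1 to 4. It did not pass the filter on low counts and was not tested, and it was picked out after its values were seen, as was the target Chac1.

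The promoters of a pair of these stress genes are shown because they hold the composite C/EBP-ATF element, the letters that ATF4 dimers are known to bind. The 250 bases before the start, taken from RefSeq windows on GRCm38.p6 and written on the gene's own strand, are shown for Fgf21 (minus strand, chr7:45615491-45615740) and Atf3 (minus strand, chr1:191183334-191183583). Capitals mark a match to TGATGNAA on either strand, which starts 139 bases before the start of Fgf21 and 110 before that of Atf3.
Fgf21: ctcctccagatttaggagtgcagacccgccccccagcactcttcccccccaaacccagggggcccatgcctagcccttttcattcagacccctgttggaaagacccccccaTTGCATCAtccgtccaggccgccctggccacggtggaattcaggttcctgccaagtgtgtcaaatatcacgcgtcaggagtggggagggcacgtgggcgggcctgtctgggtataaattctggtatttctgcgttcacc
Atf3: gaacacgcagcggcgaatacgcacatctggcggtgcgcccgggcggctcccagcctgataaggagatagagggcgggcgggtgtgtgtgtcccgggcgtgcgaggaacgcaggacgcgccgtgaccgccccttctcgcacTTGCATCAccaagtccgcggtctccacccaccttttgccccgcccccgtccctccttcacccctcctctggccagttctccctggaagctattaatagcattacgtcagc
Searched windows run from 250 bases before to 50 after the start, and of 27025 genes with such a window, tested or not, 4.51% held this element. Of the 25 ATF4 targets tested, 22 had a window and 7 of these held it (31.8%), namely Fgf21, Chac1, Vldlr, Trib3, Asns, Herpud1 and Pycr1. Of those 7, Fgf21, Chac1 (log2 fold change 2.15, SE 0.36, adjusted p = 0.000839), a glutathione-degrading enzyme gene, and Vldlr (log2 fold change 1.61, SE 0.39, adjusted p = 0.00791) rose and the others did not pass the test. The target list holds only tested genes, so its share and that of all genes with a window are not of like sets. A match is a description of letters and shows no binding.

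Genes of mitochondrial protein quality control rose mildly and those of the endoplasmic reticulum fell. Of 17 mitochondrial chaperone and protease genes, 7 rose and 0 fell, led by the prohibitin gene Phb (log2 fold change 1.07, SE 0.13, adjusted p = 0.000107), with Hspd1, the matrix chaperonin, at 496 ± 67.5 against 728 ± 77.6 CPM (adjusted p = 0.0118), a call lost without WT replicate 1 (0.0507) or 2 (0.0542). Of 22 genes of ER chaperones and the unfolded protein response, 1 rose and 15 fell. Hspa5, which encodes BiP, had a log2 fold change of −0.59 (SE 0.15, adjusted p = 0.0115, and 0.0512 with library size only), and Hyou1, its exchange factor, a log2 fold change of −1.08 (SE 0.14, adjusted p = 0.000156). Edem1, which draws misfolded glycoproteins to degradation, fell from 157 ± 8.96 to 64.4 ± 9.29 CPM (log2 fold change −1.28, SE 0.13, adjusted p = 3.18e-05). The exception was Eif2ak3, the ER stress kinase PERK that feeds into ATF4, from 8.72–17.3 to 37.7–52.6 CPM (log2 fold change 1.72, SE 0.21, adjusted p = 0.000103).

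Antioxidant genes controlled by NRF2 rose in part, at 10 of 19 higher and 0 lower. Srxn1, which repairs oxidized peroxiredoxins, went from 49.7–60.9 to 165–634 CPM (log2 fold change 2.91, SE 0.33, adjusted p = 6.57e-05). The pentose phosphate enzymes Pgd and Tkt, which also serve NADPH supply, rose by 1.51 and 0.96 on the log2 scale, and Hmox1, heme oxygenase, by 2.63 (adjusted p = 0.000749). Nqo1, a standard NRF2 reporter, did not pass (log2 fold change 0.46, SE 0.20, adjusted p = 0.105), but did with library size only (0.0267). Glutathione transferases went down, with 3 of 22 higher and 11 lower, among them Gsta4, which clears lipid aldehydes, from 24.1 ± 5.52 to 7.05 ± 0.724 CPM, and Gstt1 from 141 ± 14.01 to 51.1 ± 11.5 CPM. Of 20 p53 targets 7 rose and 1 fell (40% called), and of 20 heat shock chaperones 6 rose and 0 fell (30% called), where 16.7% of all genes rose and 15.4% fell. Without SKO replicate 3 the p53 counts were 6 and 2. The cell cycle inhibitor gene Cdkn1a rose from 5.33–25.3 to 31.03–97.5 CPM (log2 fold change 2.00, SE 0.42, adjusted p = 0.00367) and the small heat shock gene Hspb1 from 11.5–15.9 to 31.7–139.5 CPM (log2 fold change 2.38, SE 0.36, adjusted p = 0.00046). Hspa8, the abundant cytosolic chaperone, rose from 1147 ± 366 to 2247 ± 416 CPM (log2 fold change 0.97, SE 0.23, adjusted p = 0.00711).

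Lysosomal genes rose as a broad, shallow group. Of 54 tested, 27 rose and 5 fell, but 4 of the rises passed 2-fold, and the median was 0.31. Gpnmb, a glycoprotein of lysosomes and melanosomes, had 0.361, 0.492, 0.0636 and 0 CPM in WT and 53.7, 36.6, 25.8 and 26.9 CPM in SKO livers (log2 fold change 7.24, SE 0.50, adjusted p = 2.58e-06, and 7.84 without WT replicate 2), and the ratio of counts, 172, had a 95% counting interval from 106 to 302. Cd63, a lysosomal tetraspanin, had 4.80, 3.07, 3.56 and 3.39 CPM in WT and 41.01, 47.2, 42.9 and 52.1 CPM in SKO livers (log2 fold change 3.62, SE 0.17, adjusted p = 2.88e-07). Lipa, which frees fatty acids from lysosomal lipid, and the protease gene Ctsd rose from 201 ± 16.3 to 437 ± 40.4 CPM and from 192 ± 5.31 to 319 ± 54.7 CPM (adjusted p = 5.57e-05 and 0.00175). Upstream, 6 of 14 genes of the TFEB axis rose and 1 fell, and 6 and 0 without SKO replicate 3. Flcn and Rragd, parts of the lysosomal nutrient-sensing machinery, rose by 1.03 and 1.64 on the log2 scale, and Sqstm1, which encodes the autophagy receptor p62, went from 418 ± 27.7 to 1150.4 ± 392 CPM (log2 fold change 1.46, SE 0.24, adjusted p = 0.000686). Atp6v0d2, a proton pump subunit, fell from 1.66–3.18 to 0–0.191 CPM (log2 fold change −4.64, SE 0.54, adjusted p = 7.78e-05). Of 32 autophagy genes proper 4 rose and 8 fell.

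The Ctsd window (minus strand, chr7:142387828-142388077, GRCm38.p6) shows the CLEAR element of lysosomal genes, TCACGTGA, in capitals, 99 bases before the start. The other capitals are a pair of matches to TGACNNNGC, the antioxidant response element, at 62 and 47 bases before it.
Ctsd: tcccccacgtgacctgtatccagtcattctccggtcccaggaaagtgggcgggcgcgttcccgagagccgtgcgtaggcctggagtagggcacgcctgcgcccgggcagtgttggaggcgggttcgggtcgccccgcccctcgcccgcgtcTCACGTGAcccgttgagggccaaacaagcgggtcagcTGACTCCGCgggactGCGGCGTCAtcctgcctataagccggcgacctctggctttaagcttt
Of all 27025 genes with a window, tested or not, 1.12% held TCACGTGA and 14% held TGACNNNGC, both strands counted. Among NRF2 targets, 16 of the 19 tested had a window and 8 of these held TGACNNNGC (50%), as did 7 of the 22 ATF4 targets with a window (31.8%).

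Several of the lysosomal genes are also known from lipid-laden macrophages, so markers of other cell types were read beside them. Of 9 tested markers of infiltrating or lipid-associated macrophages, 4 rose, Gpnmb, Cd63, Cd68 (log2 fold change 2.28, SE 0.28, adjusted p = 0.000107) and Cd9 (log2 fold change 1.21, SE 0.17, adjusted p = 0.000283), and 1 fell, Spp1. All 13 listed markers, the untested ones included, summed to 77.5 to 134 CPM in WT and 175 to 216 CPM in SKO livers. Much of the difference in that sum came from Gpnmb and Cd63, so it says little of the other listed markers. Other macrophage markers were not called. Adgre1, which encodes F4/80, had 16.1, 8.85, 12.3 and 6.35 CPM in WT and 15.5, 6.17, 20.4 and 5.09 CPM in SKO livers (log2 fold change 0.11, SE 0.42, adjusted p = 0.871), Lyz2 a log2 fold change of −0.44 (SE 0.33, adjusted p = 0.358), and Trem2, too low to be tested, 0.254–0.929 and 0.438–1.53 CPM. No marker of Kupffer cells (0 of 10) or sinusoidal endothelium (0 of 10) was called, but with SKO replicate 3 left out 1 Kupffer marker was lower and their median log2 fold change went from −0.02 to −0.37. The median deviation of the Kupffer markers was 0.11, −0.53, 0.58 and −0.75 in SKO and 0.49, −0.06, 0.01 and −0.42 in WT replicates 1 to 4. Endothelial markers summed to 371 to 463 CPM in SKO livers and to 582 CPM in WT replicate 1 against 275 to 314 in the other WT livers. The summed Kupffer level was 394 to 642 CPM in WT and 342 to 618 CPM in SKO livers, and its marker Clec4f had a log2 fold change of −0.14 (SE 0.22, adjusted p = 0.678). Stellate cell markers gave 1 of 10 higher, and their summed level was higher in every SKO liver (265 to 354 CPM) than in any WT liver (197 to 229.6 CPM). Cholangiocyte markers gave 0 of 5 tested higher and 2 lower, and all 10 listed summed to 42.05 to 50.8 CPM in WT and to 21.2 to 26.6 CPM in SKO livers, again without overlap. Spp1 was on this list as well as on that of the macrophages, so these lists are not independent. Of 6 tested erythroid markers 2 rose and 1 fell (4 and 1 without SKO replicate 3), and all 8 listed summed to 123 to 257 CPM in WT and 168 to 538 CPM in SKO livers. Lymphocyte, neutrophil and exocrine pancreas markers had 2, 1 and 1 tested genes and no call. Of 3 tested adipocyte markers, Fabp4 rose and Car3, a carbonic anhydrase gene that hepatocytes also express, fell, while Adipoq, the adipocyte hormone gene, was at 0–0.269 CPM in WT and 0–0.0507 CPM in SKO livers. What part these cells had in the changes of other genes was not tested.

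**Figure D4:**
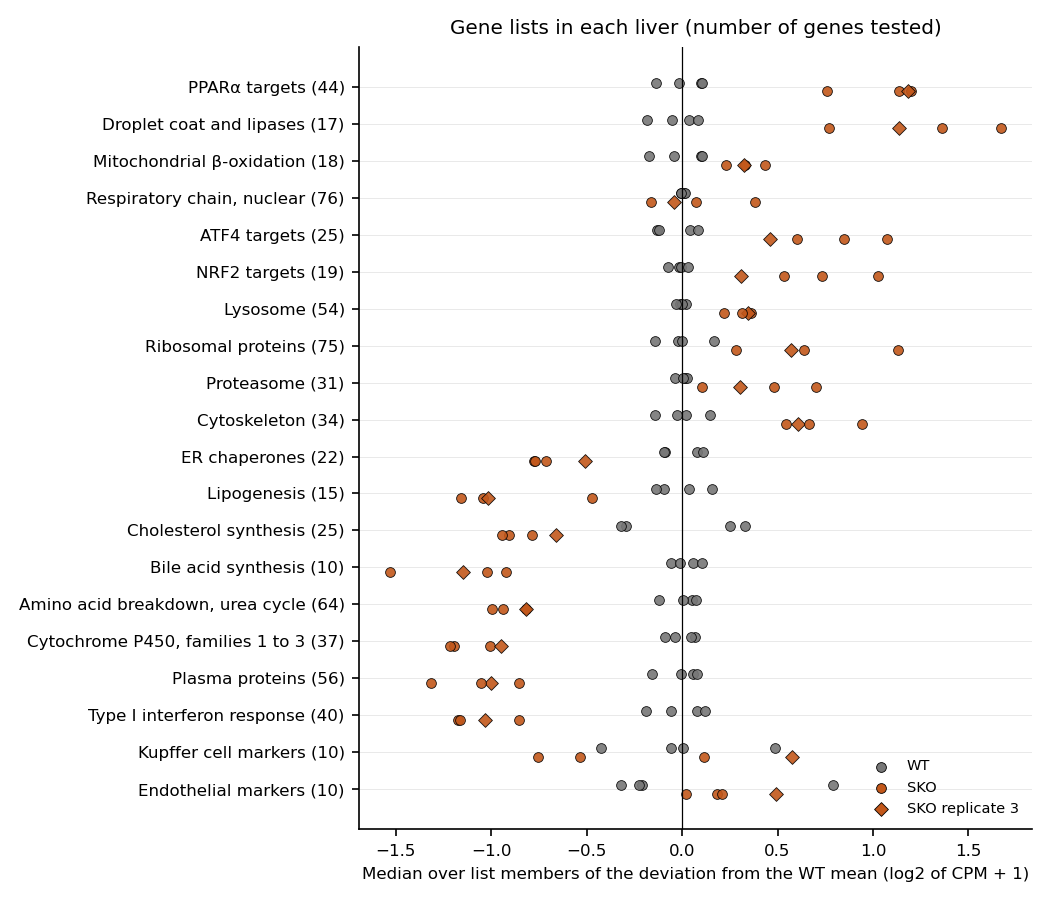
For 20 gene lists, each point is 1 liver's median deviation from the mean of the WT livers over the genes tested, on the log2 scale of CPM + 1, with WT in grey, SKO in orange and SKO replicate 3 as a diamond. PPARα targets, droplet and ribosomal genes lie to the right in all 4 SKO livers, plasma protein, amino acid and interferon genes to the left. Kupffer cell markers overlap between the groups, and nuclear respiratory chain genes lie on both sides of the narrow WT range, with SKO replicate 2 at 0.38.

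Hepatocyte genes that serve the rest of the body were widely lower. In the urea cycle, 0 of 10 genes rose and 8 fell. Otc, ornithine transcarbamylase, had 352, 358, 325 and 343 CPM in WT and 78.8, 35.99, 68.7 and 77.2 CPM in SKO livers (log2 fold change −2.40, SE 0.22, adjusted p = 1.69e-05), with Ass1 falling from 3835 ± 461 to 1475 ± 200.04 CPM. Of 54 amino acid breakdown genes, 1 rose and 41 fell. The examples with the smallest p-values include Gnmt, which disposes of methyl groups from methionine, from 1940.5 ± 96.3 to 455 ± 20.8 CPM, and Haao, of the kynurenine route, from 311 ± 19.7 to 37.4 ± 12.3 CPM. Hal, which degrades histidine, fell from 522–1074 to 37.4–119.9 CPM and Bhmt, a remethylase of homocysteine, from 6679 ± 1052 to 794 ± 383 CPM. Gls2, the periportal glutaminase, which feeds ammonia to the urea cycle and was listed with it, fell from 489 ± 38.6 to 133 ± 25.3 CPM. For these 5 genes, SKO and WT values did not overlap. Car5a, the mitochondrial carbonic anhydrase that supplies bicarbonate to the first step of the cycle, was among the largest falls, from 58.2–72.3 to 0.558–5.09 CPM (log2 fold change −5.09, SE 0.50, adjusted p = 2.58e-05, and −6.13 without SKO replicate 1).

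Detoxification genes fell with them. Of 37 tested cytochrome P450 genes of families 1 to 3, 1 rose and 28 fell, with a median of −1.18. Cyp2c54 and Cyp2c50, close paralogs whose reads may be shared, fell, with log2 fold changes of −4.31 and −3.53. Cyp1a2 fell from 282 ± 32.3 to 74.5 ± 28.1 CPM (log2 fold change −1.92, SE 0.23, adjusted p = 9.72e-05) and Cyp2e1 from 10685 ± 2041 to 6667 ± 1557 CPM (log2 fold change −0.68, SE 0.21, adjusted p = 0.0263), a call lost in 3 of 8 fits that left out 1 liver. Conjugating enzymes gave 3 of 33 higher and 17 lower, with the glucuronosyltransferase gene Ugt1a9 falling from 134 ± 15.8 to 29.7 ± 8.42 CPM, although genes of that cluster share exons, and the sulfotransferase gene Sult1d1 from 195 ± 36.2 to 48.5 ± 12.7 CPM. Aox3, an aldehyde oxidase, fell from 453–588 to 7.58–64.99 CPM (log2 fold change −4.32, SE 0.58, adjusted p = 0.000194, and −5.36 without SKO replicate 1).

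Transcripts of secreted plasma proteins, the main product of hepatocytes, fell. Carrier, complement and coagulation genes gave 0 higher and 48 lower of 56, with a median of −1.02, and all plasma proteins together went from 14.7 to 16.3% of counts in WT livers to 7.75 to 10.1% in SKO livers. Alb, albumin, took 5.07 to 5.88% of counts in WT and 2.36 to 4.68% in SKO livers (log2 fold change −0.89, SE 0.23, adjusted p = 0.0115), a call lost with all 12 livers in the fit (0.0823). Trf, transferrin, had 11173, 12305, 12722 and 10981 CPM in WT and 3745, 4162, 3772 and 3775 CPM in SKO livers (log2 fold change −1.61, SE 0.14, adjusted p = 1.25e-05). Serpind1 and Serpinf2, inhibitors of thrombin and plasmin, fell from 457 ± 28.1 to 37.02 ± 19.9 CPM and from 804 ± 27.2 to 137 ± 29.7 CPM. Ttr, transthyretin, fell, with a log2 fold change of −0.89 (adjusted p = 0.000313). Acute phase genes did not rise as a group, at 2 of 24 higher and 11 lower, and Saa4, a constitutive serum amyloid, fell from 173–277 to 4.52–15.1 CPM. Among liver-secreted hormones and factors 6 of 22 rose and 8 fell. Inhbe, a subunit of activin E, and Igfbp1, an IGF carrier, rose from 89.6 ± 20.3 to 249.6 ± 59.3 CPM and from 145 ± 30.4 to 748 ± 559 CPM (adjusted p = 0.00029 and 0.00348). Enho, which encodes adropin, fell from 22.7 ± 5.33 to 2.37 ± 0.834 CPM (log2 fold change −3.24, SE 0.27, adjusted p = 1.04e-05), and Leap2, a liver-made antagonist of the ghrelin receptor, from 20.5 ± 2.72 to 1.86 ± 0.548 CPM (log2 fold change −3.45, SE 0.22, adjusted p = 1.76e-06).

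These falls were not limited to one zone of the lobule. Of 17 pericentral genes 1 rose and 12 fell, and of 15 periportal genes 1 rose and 11 fell, with medians of −1.17 and −1.74. Gulo, a pericentral gene of ascorbate synthesis, fell from 309.9 ± 28.3 to 50.9 ± 11.4 CPM and the periportal aldehyde dehydrogenase gene Aldh1b1 from 59.4 ± 5.72 to 6.31 ± 2.44 CPM. Among 34 nuclear receptors and identity factors of hepatocytes 2 rose and 8 fell (29.4% called, against 32.1% of all genes). Hnf4a, the master regulator of hepatocyte genes, had 869 ± 54.3 CPM in WT and 828 ± 101 CPM in SKO livers (log2 fold change −0.07, SE 0.13, adjusted p = 0.739), while the estrogen receptor gene Esr1 fell from 21.9 ± 4.27 to 8.39 ± 2.24 CPM (log2 fold change −1.38, SE 0.21, adjusted p = 0.00054). Of 10 hepatocyte markers 5 fell and 0 rose. Of 17 clock genes 0 rose and 7 fell (1 and 8 without SKO replicate 3), including the output factor genes Hlf, from 90.5 ± 5.56 to 40.5 ± 15.5 CPM, and Tef, from 329 ± 30.1 to 209 ± 39.1 CPM, the latter not called with all 12 livers in the fit (adjusted p = 0.0698). Per the study's methods, 24 h fasts began and ended in mid-afternoon, and the labels give no time for each liver.

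Interferon-stimulated genes fell. Of 40 genes, 0 rose and 29 fell, 24 of them past 2-fold, with a median of −1.12, and without SKO replicate 3 the counts were 0 and 27. Every member had a negative fold change, from −2.71 to −0.12. Ifit1, an antiviral RNA-binding protein gene, had 15.1, 14.7, 10.7 and 9.69 CPM in WT and 2.67, 1.76, 1.73 and 2.68 CPM in SKO livers (log2 fold change −2.51, SE 0.24, adjusted p = 2e-05). The GTPase genes Irgm1, Igtp and Iigp1 fell from 47.7 to 16.2, 31.7 to 9.06 and 259.6 to 86.8 CPM on average. Chemokine and cytokine genes gave 1 of 20 higher and 4 lower, with the neutrophil-recruiting Cxcl1 gene having 1.51–4.26 CPM in WT and 0.101–0.636 CPM in SKO livers and Cxcl12 falling from 395–447 to 102–176 CPM.

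The Ifit1 window (plus strand, chr19:34640639-34640888, GRCm38.p6) shows the interferon-stimulated response element, searched on both strands as GAAA, any 2 bases and GAAA, which was matched at 104 and at 85 bases before the start and stands in capitals.
Ifit1: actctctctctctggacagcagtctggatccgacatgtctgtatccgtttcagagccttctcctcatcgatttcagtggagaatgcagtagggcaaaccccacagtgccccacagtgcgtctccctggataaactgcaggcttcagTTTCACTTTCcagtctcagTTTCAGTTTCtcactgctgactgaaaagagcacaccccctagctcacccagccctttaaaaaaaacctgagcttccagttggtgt
Of all genes with a window, tested or not, 3.99% held such a match.

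Transcripts of the machinery that makes and removes proteins rose. Of 75 cytosolic ribosomal protein genes, 64 rose and 0 fell, with a median of 0.71, which was 0.691 to 0.881 under the other scalings. In SKO replicates 1 to 4 the median deviation from WT was 0.29, 1.13, 0.57 and 0.64, against −0.02, −0.14, 0.17 and 0.00 in WT replicates. Rpl12 and Rpl17 were among the 5 with the smallest p-values, at 113 ± 14.98 against 279 ± 85.1 CPM and 34.7 ± 3.39 against 76.8 ± 14.8 CPM. These genes have many processed pseudogenes that can share reads, and of 68 such pseudogenes tested 29 rose and 1 fell. Over 5 bins of protein-coding genes by length, the median log2 fold change went from 0.09 in the shortest bin of 2459 genes to −0.04 in the longest of 2457. Of 20 cytosolic tRNA synthetase genes 12 rose and 0 fell, with Vars, for valine, and Iars, for isoleucine, up by 1.00 and 0.80 on the log2 scale. The proteasome gave 16 of 31 higher and 0 lower, led by the cap subunits Psmd8, from 110.2–122 to 272–474 CPM (log2 fold change 1.68, SE 0.19, adjusted p = 5.55e-05), and Psmd4, from 106–119 to 217–370.5 CPM (log2 fold change 1.34, SE 0.16, adjusted p = 0.000112).

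Cytoskeletal genes rose in the same direction, 17 of 34 against 0 lower. Tubb2a, a β-tubulin, had 25.8, 32.3, 16.3 and 15.6 CPM in WT and 382, 834, 549 and 766 CPM in SKO livers (log2 fold change 4.82, SE 0.33, adjusted p = 2.46e-06), and its neighbour Tubb2b, which may share reads with it and had 8 counts in all WT livers, went from 0–0.184 to 13.4–38.2 CPM. Actg1, γ-actin, went from 78.05–92.9 to 329–439.8 CPM (log2 fold change 2.23, SE 0.14, adjusted p = 1.24e-06). Among immediate early and AP-1 genes, 8 of 16 rose and 1 fell (8 and 0 without SKO replicate 3), including Klf6, Myc and Jun, by 3.09, 2.09 and 1.31 on the log2 scale. Of the CREB and ATF family, 7 of 16 rose and 1 fell. Creb5, at 11 counts in all WT livers, went from 0–0.361 to 2.38–14.5 CPM (log2 fold change 5.66, SE 0.77, adjusted p = 0.00022, and 6.55 without WT replicate 1) and Creb3 from 39.99 ± 2.70 to 80.3 ± 20.995 CPM (log2 fold change 1.01, SE 0.17, adjusted p = 0.00107). Creb3l3, the fasting-induced liver member, and Esrra, an orphan receptor, did not pass (log2 fold change 0.35, SE 0.16, adjusted p = 0.112 and log2 fold change 0.34, SE 0.13, adjusted p = 0.069). Both passed with library size only (0.0134 and 0.00765), and Esrra also without SKO replicate 3 (0.0472).

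Matrix, cell cycle and iron genes did not move one way. Of 41 matrix genes 9 rose and 6 fell (36.6% called), with a median log2 fold change of 0.25 that was 0.02 without SKO replicate 3. The laminin gene Lamb3 went from 9.86–14.3 to 78.8–254 CPM (log2 fold change 3.63, SE 0.34, adjusted p = 1.85e-05), the matrix protease gene Adamts1 from 9.42–14.1 to 55.4–83.3 CPM (log2 fold change 2.54, SE 0.19, adjusted p = 4.47e-06) and the collagen gene Col5a3 fell from 25.6–38.7 to 3.61–10.2 CPM (log2 fold change −2.28, SE 0.28, adjusted p = 0.000119). Of 19 genes of S phase and mitosis 3 rose and 3 fell. Of 22 heme and iron genes 5 rose and 5 fell, with the ferritin genes Ftl1 and Fth1, which have processed copies that may share reads, up from 1187 ± 53.5 to 2499 ± 639 CPM and from 1435 ± 107 to 2589 ± 716 CPM.

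Several of the largest single changes were receptors and channels. Adra2a, the α2A adrenergic receptor gene, had 2 counts in all 4 WT livers and 22.001, 10.3, 24.97 and 5.09 CPM in SKO livers, a ratio of counts of 608 with a 95% counting interval from 168 to 5020. Adrb3, a β-adrenergic receptor gene, fell from 7.37–13.2 to 0.304–1.15 CPM (log2 fold change −3.75, SE 0.36, adjusted p = 2.44e-05). Lepr, the leptin receptor gene, had 10.6, 4.92, 7.57 and 5.49 CPM in WT and 222, 219.5, 223 and 84.3 CPM in SKO livers (log2 fold change 4.71, SE 0.36, adjusted p = 5.23e-06), and the deposited counts do not tell its long signalling form from the short ones. Aqp3 and Aqp7, channels for glycerol, went from 0–0.123 to 3.01–9.13 CPM and from 0–0.215 to 1.36–10.8 CPM, and Nrg1 and Ephb2, a growth factor and a receptor kinase, went from 0–0.464 to 4.62–7.03 CPM and from 0–0.258 to 1.37–11.7 CPM. Among noncoding genes, the lncRNA Gm15441 had 7.95, 9.46, 8.97 and 17.4 CPM in WT and 443, 658, 371 and 507 CPM in SKO livers (log2 fold change 5.50, SE 0.30, adjusted p = 6.94e-07), and Snhg10, a small nucleolar RNA host gene, went from 0.184–0.464 to 2.84–32.7 CPM. Hectd2os fell from 4.52–6.71 to 0–0.203 CPM. Dusp8, a phosphatase of stress kinases, went from 0.807–1.60 to 10.8–30.9 CPM, and Map2k6, a kinase upstream of p38, fell from 9.36–19.7 to 0.301–1.53 CPM.

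Among genes that differ between male and female liver, the female-biased list turned without the liver that carries Xist counts and the male-biased list did not. Cyp2a4, a female-biased P450, had 1.14, 0.369, 0.382 and 2.48 CPM in WT and 2.99, 26.96, 135 and 0.657 CPM in SKO livers. Its call was lost with all 12 livers in the fit (adjusted p = 0.0981) and with the replicate number as a block (0.0848). Of 12 female-biased genes tested, 4 rose and 1 fell with a median of 0.50, and without replicate 3 this became 3 and 2 with −0.45. Of 32 male-biased genes, 0 rose and 11 fell, and without that liver 2 rose and 15 fell, with medians of −1.44 and −1.05. Their median deviation from the WT mean was −0.93, −2.39, −3.44 and −0.44 in SKO replicates 1 to 4. The major urinary protein genes took 1.93 to 2.79% of counts in WT livers and 1.39, 0.548, 0.171 and 1.99% in SKO replicates 1 to 4. Mup10 had 3.10, 2.52, 904 and 1.51 CPM in WT and 0.382, 0.151, 0.152 and 0.274 CPM in SKO livers, so the size of its fall rests on 1 WT liver, and reads of this family are hard to assign. In the growth hormone axis, 3 of 15 genes rose and 5 fell. The receptor gene Ghr fell from 392 ± 19.5 to 158 ± 35.2 CPM (log2 fold change −1.32, SE 0.16, adjusted p = 0.000101) and Igf1 had a log2 fold change of −0.59 (SE 0.16, adjusted p = 0.0152, and 0.0534 with library size only). Obp2a, an odorant binding protein gene, fell from 3.56–12.2 to 0–0.402 CPM.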

How the data were processed

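RNA-seq was carried out by the authors on livers of mice fasted for 24 h, and the deposited table holds raw counts of reads per gene for each liver, not normalized. Per the labels and the study's processing notes, reads were aligned with HISAT2 to the GRCm38 (mm10) mouse genome, and no version was given in the sources used here. Only 3.32% of 52073 gene identifiers have a start position in the table within 1 base of that build's annotation, so no gene coordinates are printed from it. Deposited FPKM columns and the authors' comparison tables (fold changes and p-values) were not used.

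Counts of the 4 SKO and 4 WT livers were filtered with filterByExpr, scaled by TMM and fitted with edgeR 4.0.16 in R 4.3.3 (glmQLFit and glmQLFTest, genotype only), with Benjamini-Hochberg adjustment over all 14261 genes tested and a threshold of 0.05. CPM values are TMM-scaled over the 8 livers, errors are SD (n = 4), and standard errors were taken from the fold change and its F statistic. Per-liver deviations use log2(CPM + 1). Counting intervals are exact 95% Clopper-Pearson intervals and cover counting error only. On simulated counts with 200 genes changed 4-fold, the test recovered all 200 with 11 false calls among 14136 genes. Both groups were drawn from WT means with a shared dispersion per gene, and as many of the changed genes rose as fell. In the data far more genes were called and SKO livers scattered more, so the simulation gives no error rate for the data.

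The comparison and all gene lists were chosen with earlier results of these data known, so counts over a list are descriptions and no list was tested. Named genes are the 20 largest rises and falls among protein-coding genes (non-overlapping groups, at least 5 CPM in the higher group), the 10 largest in CPM, the 3 largest noncoding ones, the 5 smallest p-values and marked key members of each list, and genes the paper names. Chac1, Slc7a11, Herpud1, Pycr1 and Adipoq lie outside this rule and were chosen after their values were seen. Some genes that the rule names are not reported here.

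Alternatives were DESeq2 1.42.0, RLE, upper quartile or library-size scaling, no filter or a stricter one (1 CPM in 4 livers), all 12 livers in the fit, the replicate number as a block, and each liver left out. Promoter windows (250 bases before to 50 after the start) and their sequences are those of RefSeq on GRCm38.p6, and 9781 of 12283 tested protein-coding genes had one.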

Additional observations from a re-analysis of the deposited data

Results flagged for a closer look

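Each group of 4 livers was checked for a single liver whose gap to the nearest other liver took an unusual part of the group's range, by the 95% critical value of Dixon's ratio. Among 405 groups, made of the named genes' CPM and a few library measures, 22 were found, where chance gives about 1 in 20 groups, 20.2 here. Of these, 11 were WT and 11 SKO livers, 2 of them SKO replicate 3.

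In SKO replicate 3, Xist had 18063 counts against 8 to 14 in the other SKO livers, and Hectd2os 0.203 CPM against 0. SKO replicate 2 had high CPM of Trf (4162), Tubb2b (38.15) and Creb3l3 (838.8) and low CPM of Pecr (29.77) and Gulo (34.04). SKO replicate 1 had more Nr0b2 (3.752 CPM), Car5a (5.087 CPM) and Aox3 (64.99 CPM) than the other SKO livers, although all 3 stayed below every WT liver. Lepr was lowest in SKO replicate 4, at 84.34 CPM against 219.5 to 223.2.

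Among WT livers, replicate 1 had low Acadvl (260.2 CPM) and replicate 2 high Nupr1 (0.8604 CPM), Esrra (68.09 CPM) and Adra2a (0.1229 CPM, where the others had 0). Replicate 3 stood apart for Slc16a1 (32.19 CPM), Cyp7a1 (187.5 CPM), Ppp1r3b (321.3 CPM), Saa4 (276.5 CPM) and Mup10 (903.6 CPM against 1.51 to 3.10). Replicate 4 stood apart for Fabp3 (0.2153 CPM) and Gm15441 (17.38 CPM).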

How the results depend on the processing

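The number of genes differing between SKO and WT, 4576, ranged from 3617 to 4711 when 1 liver was left out, and was 4973 with DESeq2, 4559 with RLE scaling, 4570 with upper quartile scaling, 5321 with library size only, 4803 without a filter, 4481 with the stricter filter and 3951 with all 12 livers in the fit. With library size only, genes called higher rose from 2378 to 3759, the single one of the 6 gene counts that left the range of 1.5 times in any alternative. Counts over gene lists were less stable. They moved by over 1.5 times in 135 of 1104 values with 1 liver left out, and among 138 values each in 30 with library size only, 18 without a filter, 17 with all 12 livers, 14 with the block, 7 with DESeq2, 1 with RLE scaling and 0 with upper quartile scaling or the stricter filter. List medians moved by more than the spread of the livers in 22 of 552 values with 1 liver left out and in 27 of 69 with library size only, where 1 more changed sign, and in 1 of 69 each with the block and the stricter filter. Correlations of same-numbered deviations were 0.072, −0.072, 0.066 and −0.048, within the range of the other pairs, −0.191 to 0.135. Whether livers were paired by litter or batch cannot be told from these values. With the replicate number as a block, 4111 genes were called.

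Of 176 called named genes, 160 kept their call in every alternative in which they were tested. The other 16 are Cpt1a, Slc25a20, Acadvl, Cyp4a10, Scd1, Apob, Apoe, Ddit3, Hspd1, Hspa5, Cyp2e1, Alb, Igf1, Cyp2a4, Tef and Slc16a6, of which Acadvl, Cyp4a10, Ddit3, Alb and Tef lost it only with all 12 livers in the fit. Scd1 lost it without SKO replicate 2 or 4 (adjusted p = 0.0723 and 0.0683) and Hspd1 without WT replicate 1 or 2 (0.0507 and 0.0542). Calls were gained by Esrra and Creb3l3 (0.00765 and 0.0134) and Nqo1 (0.0267) with library size only, by Esrra (0.0472) and Pcx (0.0496) without SKO replicate 3, and by Trib3 in 6 alternatives (0.00581 to 0.0444). With library size only, log2 fold changes turned positive for Apoc3 (0.148), Clec4f (0.031), Hnf4a (0.105) and the median of the growth hormone axis (0.013). When 1 liver was left out, sign changes put the log2 fold change of Apoc3 between −0.193 and 0.124, the log2 fold change of Apoa5 between −0.038 and 0.121, the log2 fold change of Asns between −0.556 and 0.100, the log2 fold change of Adgre1 between −0.297 and 0.364, the log2 fold change of Clec4f between −0.274 and 0.031, and the log2 fold change of Hnf4a between −0.143 and 0.001. The block turned that of Adgre1 (−0.028). None of these genes was called. Leaving out 1 liver moved further called genes by over 1.5 times, with log2 fold changes of 3.20 for Cyp2a4 and 4.55 for Aqp7 and −9.69 for Hectd2os without SKO replicate 3, −3.87 for Cxcl1 without SKO replicate 1, −6.57 for Obp2a without SKO replicate 2, 6.39 for Ephb2 and 6.02 for Nrg1 without WT replicate 1, 11.14 for Adra2a without WT replicate 2, −3.32 for Mup10 without WT replicate 3, and 8.17 for Fabp3 and 5.98 for Cyp2a4 without WT replicate 4. The cause was not tested.

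The limits are the 4 livers per group, the Xist counts of SKO replicate 3, the label of the WT livers, which names floxed Cpt1a and Cpt1b, and the bulk tissue. Genes within 5 Mb of Cpt2, Cpt1a and Cpt1b were called in 37.5% of 56, 28.1% of 153 and 38.1% of 63, against 32.1% of all genes.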
